A study of Mus musculus with 9 samples.

Results

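The hepatic nuclear receptors *Nr1h3*, *Nr1h4*, *Nr1i2*, *Nr1i3*, *Nr0b2*, *Nr2f2*, *Nr5a2*, *Rxra*, *Pparg* and *Nr3c1* were examined in AML12 cells, an immortalised hepatocyte line from the liver of mice carrying a transgene for the growth factor TGF alpha. The 10 genes were chosen by name, with earlier results of these data known. Of the 10, 9 have a row among the 13259 genes that both deposited tables list. *Nr1i3* has none. RNA was sequenced from 9 libraries of this single line, 3 with a control shRNA, 3 with *Srrm2* shRNA 1 and 3 with *Srrm2* shRNA 2, where *Srrm2* encodes a scaffold protein of nuclear speckles. The *Srrm2* hairpins were delivered by lentivirus and left for 5 days, and no time is given for the control hairpin. All cultures were kept in 10% serum with an insulin supplement and 0.1 µM dexamethasone, a synthetic ligand of the glucocorticoid receptor, so controls and knockdown cells alike were exposed to it. The value used for each gene is the authors' mean normalized count, which one table gives over the control and shRNA 1 libraries together and the other over the control and shRNA 2 libraries together. All 3 control libraries are taken to enter both tables, as their titles imply. The labels of 2 of them, however, name the table of shRNA 1 and, in place of that of shRNA 2, tables with other hairpin numbers. The 9 libraries hold only 2 hairpins against *Srrm2*, so what these numbers refer to is not known. Whether the same controls enter both means is therefore not certain. Neither table holds a value per library, so the means have no SD, the depth of a library is unknown, and these means allow no test between conditions. The statistics of the authors' own comparisons, which the tables also hold, were not used.

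Nuclear receptors are transcription factors that bind DNA through a pair of zinc fingers and are switched by small lipophilic ligands or, for the orphan receptors, without a known or required one. In liver, FXR, LXR, PXR, CAR and the PPARs sense bile acids, oxysterols, foreign chemicals and fatty acids, and bind DNA as dimers with RXR. The glucocorticoid receptor acts mainly as a dimer with itself, and SHP, which has no zinc fingers, binds other receptors and represses them.

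The coding sequences of the receptors show a pattern that 9 of the 10 share and that was not found in SHP. The start of the first zinc finger was searched for in the longest coding transcript of each gene in GENCODE M1 (build NCBIM37, the assembly of mm9) as 4 cysteine codons with 2, 13 and 2 codons between them. The pattern was found once in 9 of the 10 genes and not in *Nr0b2*, whose coding sequence is 783 bases long. It was found in 46 of 49 genes of the nuclear receptor superfamily and in 1.67% of all 22594 coding genes searched, so the pattern alone does not mark a receptor. The superfamily genes without it were *Nr4a3*, *Nr0b1* and *Nr0b2*. Because 1 transcript of each gene was searched for 1 spacing, a missing match alone does not show that a gene lacks the finger. The 69 bases of 23 codons are given below for 7 receptors, with capitals marking the 18 bases from the third cysteine codon onwards, which encode the P-box, the stretch of the finger that reads the DNA half-site.
Nr1h4 (FXR): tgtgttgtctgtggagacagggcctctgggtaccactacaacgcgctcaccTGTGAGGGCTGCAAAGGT
Nr1h3 (LXR alpha): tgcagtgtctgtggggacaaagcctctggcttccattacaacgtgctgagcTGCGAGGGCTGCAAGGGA
Nr1i2 (PXR): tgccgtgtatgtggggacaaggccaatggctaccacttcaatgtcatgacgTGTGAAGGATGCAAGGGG
Nr1i3 (CAR): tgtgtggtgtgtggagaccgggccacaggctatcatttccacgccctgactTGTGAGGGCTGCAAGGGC
Rxra: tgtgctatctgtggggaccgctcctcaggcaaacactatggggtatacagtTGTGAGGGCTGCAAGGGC
Nr5a2 (LRH-1): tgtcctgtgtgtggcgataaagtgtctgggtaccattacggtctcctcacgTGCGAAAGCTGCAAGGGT
Nr2f2 (COUP-TFII): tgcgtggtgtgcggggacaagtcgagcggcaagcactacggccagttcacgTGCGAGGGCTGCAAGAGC
Among the 21 pairs of these sequences, *Nr1h4* shared the most bases with *Nr1h3* and with *Nr1i3*, 54 of 69 in each case (78.3%). *Rxra* shared the fewest with *Nr1i2* and with *Nr5a2*, 41 of 69 in each case (59.4%).

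To compare different genes, each mean was divided by the gene's exon length and scaled to a sum of 1000000 over the genes listed in that table, which is called the length-scaled level here. FXR, encoded by *Nr1h4* (ENSMUSG00000047638.9, chromosome 10 of mm9 from 88916979 to 88996330, - strand), had the highest length-scaled level of the 9 listed receptors. Its mean normalized count was 792 over the control and shRNA 1 libraries and 684 over the control and shRNA 2 libraries. The length-scaled levels were 205 and 170, higher than those of 94.1% and 92.2% of the genes listed in the respective tables. By comparison, the median gene of either table had a length-scaled level of 25.7 and 25.6. Next in the superfamily came *Hnf4a*, the receptor that maintains hepatocyte identity, with length-scaled levels of 178 and 185. *Hnf4a* lay below *Nr1h4* in the shRNA 1 table and above it in the shRNA 2 table, so the order of these neighbours is not settled.

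The other receptors that bind DNA with RXR spread over a wide range. LXR alpha, the oxysterol receptor encoded by *Nr1h3* (ENSMUSG00000002108.4, chromosome 2 from 91024218 to 91042991, - strand), had mean normalized counts of 186 and 189 in the tables of shRNA 1 and shRNA 2, and length-scaled levels of 44.1 and 42.8. *Nr1h2*, which encodes the second LXR and is expressed in most tissues, was higher on the same scale, at 55.3 and 66.0. *Pparg*, a regulator of lipid storage (ENSMUSG00000000440.6, chromosome 6 from 115311239 to 115440419, + strand), had means of 41.2 and 42.0 and length-scaled levels of 12.4 and 12.1. *Ppara*, the PPAR of fatty acid oxidation in hepatocytes, was at 50.1 and 46.9. The xenobiotic sensor PXR, encoded by *Nr1i2* (ENSMUSG00000022809.4, chromosome 16 from 38248409 to 38294910, - strand), was lower, with means of 23.2 and 28.6 and length-scaled levels of 5.42 and 6.40, and *Nr1h4* exceeded it 37.8-fold and 26.5-fold on that scale. CAR, the related xenobiotic sensor encoded by *Nr1i3* (ENSMUSG00000005677.7, chromosome 1 from 173144101 to 173150832, + strand), has no row in either table. The lowest means listed are 1.56 and 1.92, but why a gene has no row is not given in the sources used here, so no level is given for CAR.

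*Rxra* (ENSMUSG00000015846.8, chromosome 2 from 27531960 to 27618477, + strand) encodes the common partner of these sensors. Its mean normalized counts were 415 and 451, and its length-scaled levels were 45.3 and 47.2, close to those of *Nr1h3* and below those of *Nr1h4* by 4.52-fold and 3.60-fold. *Rxrb* reached 28.0 and 30.5 on this scale, and *Rxrg* has no row. In the superfamily *Ppara* lay just above *Rxra* in the shRNA 1 table and just below it in the shRNA 2 table, and *Rara*, a retinoic acid receptor gene, just below *Nr1h3*, at 39.2 and 39.8. *Rxra* and *Nr1h3* changed places when the length of the longest transcript was used in place of all exons, so their order rests on the gene model.

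LRH-1, COUP-TFII and SHP are counted among the orphan receptors. LRH-1, encoded by *Nr5a2* (ENSMUSG00000026398.8, chromosome 1 from 138740161 to 138857004, - strand), binds DNA as a monomer and is known as an activator of bile acid synthesis genes. Its means were 128 and 158, with length-scaled levels of 19.9 and 23.5. Its nearest neighbours in the superfamily, by the average of both tables, were the thyroid hormone receptor gene *Thra* (24.1 and 22.3), which it exceeded in the shRNA 2 table only, and the clock repressor gene *Nr1d2* (18.3 and 20.1). COUP-TFII, encoded by *Nr2f2* (ENSMUSG00000030551.7, chromosome 7 from 77496832 to 77511621, - strand), had means of 105 and 109 and length-scaled levels of 12.8 in both tables, only 1.04-fold and 1.06-fold above those of *Pparg*. Their neighbours in the superfamily were *Ppard*, at 17.6 and 16.9, and *Thrb*, at 11.9 and 12.6. SHP, encoded by *Nr0b2* (ENSMUSG00000037583.2, chromosome 4 from 133109291 to 133112451, + strand) and induced by FXR in liver, had the lowest values of the 9, with means of 4.89 and 5.16 and length-scaled levels of 2.58 and 2.60. The level of its known activator *Nr1h4* was 79.6-fold and 65.2-fold higher. Low levels near that of SHP were also seen for *Nr4a2* (2.68 and 3.15) and *Rorb* (2.59 and 2.47), and those on either side of PXR were *Rora* (8.54 and 7.88) and *Vdr*, the vitamin D receptor gene (3.81 and 3.94).

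The glucocorticoid receptor gene *Nr3c1* (ENSMUSG00000024431.7, chromosome 18 from 39570199 to 39650955, - strand) had the second highest length-scaled levels of the 9, 61.3 and 48.9. Its mean normalized counts, 763 and 636, were near those of *Nr1h4*, but its exons are longer, with 7425 bases against 2303. In the superfamily it ranked 5 of 35 in the shRNA 1 table and 7 of 35 in the shRNA 2 table, next to *Nr1h2* and to *Nr2f6*, an orphan receptor of the COUP-TF group.

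Over the 35 superfamily genes listed in both tables, the 9 hepatic receptors held 33.4% and 29.7% of the summed length-scaled level, and *Nr1h4*, *Hnf4a* and *Esrra* together held 43.4% and 42.1%. In the share of genes that have a row, the superfamily stood at 35 of 49, against 55.9% of all 22380 annotated protein-coding genes.

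**Figure D1:**
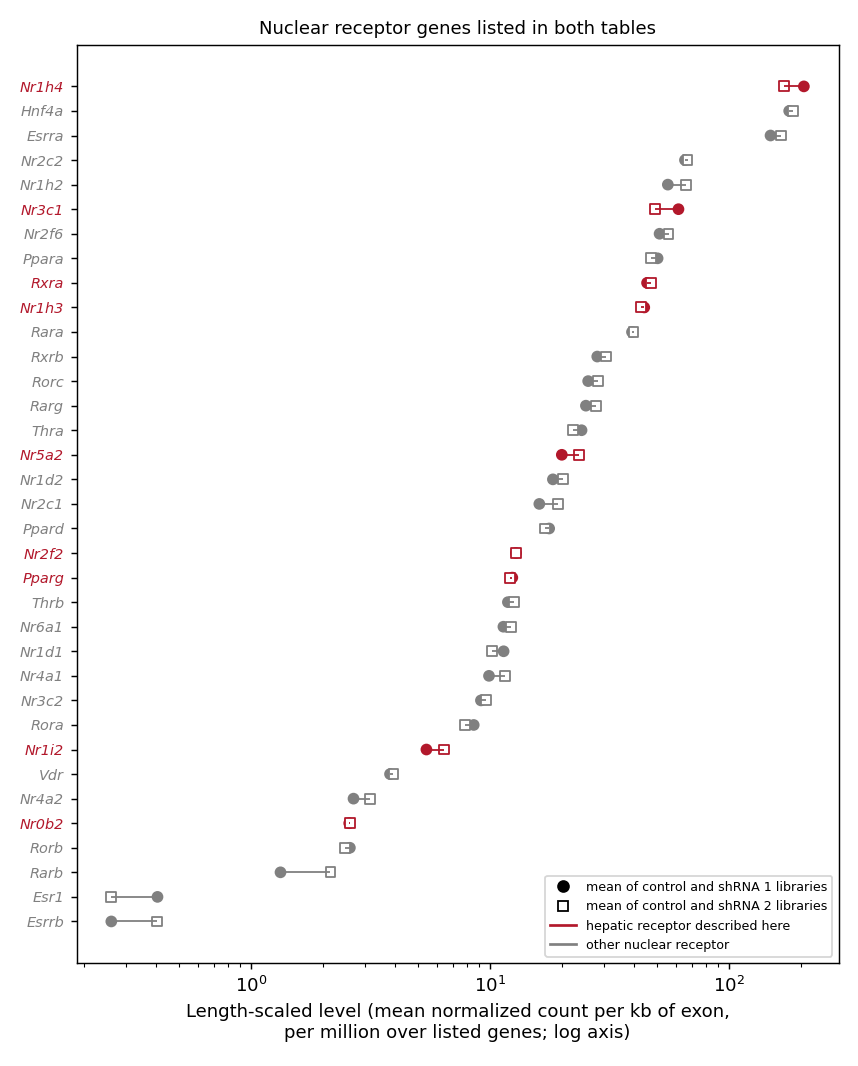
Length-scaled level (log axis) of the 35 nuclear receptor genes listed in both tables, ordered by the average of both values, with circles for the mean over control and shRNA 1 libraries, squares for the mean over control and shRNA 2 libraries, and the 9 hepatic receptors in red. *Nr1h4* lies at the top near *Hnf4a*, *Nr1i2* and *Nr0b2* lie in the lower part, and the points carry no error because the tables give pooled means alone.

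The levels of the receptors were read beside markers of the cells, since in bulk RNA fewer cells of a type and less RNA per cell cannot be told apart. All 8 hepatocyte markers have a row, with summed length-scaled levels of 9910 and 9081. Most of either sum came from the keratin genes *Krt18* (4192 and 3653) and *Krt8* (2738 and 2481). *Alb*, which encodes albumin, was at 627 and 507. *Apoa1*, the lowest of the 8, was higher than only 42.8% and 41.5% of the genes listed in the respective tables. Of 5 markers of bile duct and progenitor cells 4 have a row, with summed length-scaled levels of 2585 and 2596, led by *Spp1*. The markers of stellate cells and fibroblasts summed to 1119 and 1068, nearly all from *Vim*, which cultured cells of many kinds express, and *Col1a1* was at 0.35 in both tables. Macrophage and leukocyte markers summed to 12.4 and 14.1, and none of 4 endothelial markers has a row. The targeted gene *Srrm2* had mean normalized counts of 3428 and 3759, which pool control with knockdown cells and therefore cannot check the knockdown.

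The difference between the hairpins was approached through the ratio of the tables' means. If the same controls enter both means and the centring below removes scale differences, a centred ratio away from 1 comes from the hairpin libraries. The ratio between those libraries themselves is then at least as large. The ratio was centred on the median of the 11451 genes whose mean reached 10 in each table, a log2 ratio of -0.07, and genes were called past the fold where the centred log2 ratio was over 0.32 in either direction. It has no error. Among these genes 8.29% departed by this much, 4.41% toward shRNA 1 and 3.88% toward shRNA 2. Of the hepatic receptors, 8 could be compared and 1 of them, *Nr3c1*, was past the fold, or 12.5%, a share that a single gene sets. Of 23 other receptors of the superfamily with a sufficient mean, 0 were past it. Without centring, 9.44% of all genes departed, and the share of these that were higher in the shRNA 1 table changed from 53.2% to 27.2%.

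*Nr3c1* and *Nr1h4* were higher in the table of shRNA 1. The centred ratio of *Nr3c1* was 1.26 (0.34 in log2), just past the fold, and it had the widest ratio of the 8 receptors. Its log2 ratio was 0.26 without centring and 0.32 when centred on the summed means, and under both it was no longer past the fold. The ratio of *Nr1h4* was 1.22 (0.28 in log2), just inside it. Both genes have means between 500 and 1000 normalized counts, where 3.02% of 1621 genes were past the fold, 1.91% toward shRNA 1.

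*Nr5a2* and *Nr1i2* were higher in the table of shRNA 2, by 1.17-fold each (-0.23 in log2 for either gene in the shRNA 1 direction), and neither passed the fold. At the mean count of *Nr1i2*, between 10 and 50, 20.2% of genes were past the fold, so wide ratios were more frequent there than over all genes. The ratios of *Nr1h3*, *Pparg*, *Nr2f2* and *Rxra* lay between -0.05 and 0.05 in log2, inside the interquartile range of all genes, which ran from -0.10 to 0.10. *Nr0b2* was below the minimum mean and was not compared.

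**Figure D2:**
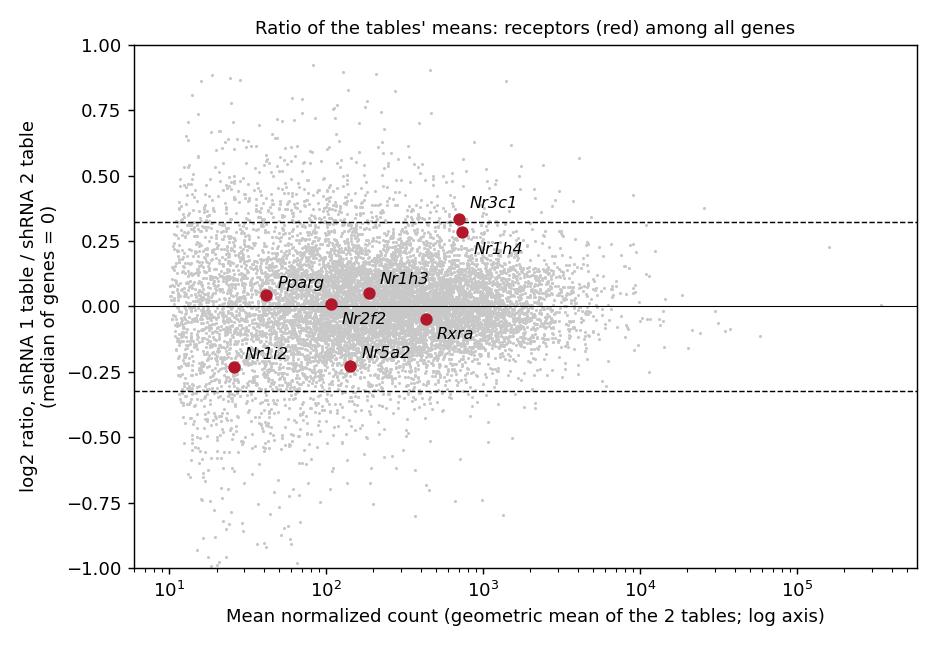
Centred log2 ratio of the shRNA 1 table's mean over the shRNA 2 table's mean against the mean normalized count (log axis) for 11451 genes (grey) and 8 receptors (red), with dashed lines at 0.32 on either side of 0 and 35 genes beyond the plotted range. *Nr3c1* at 0.34 lies just above the upper line, *Nr1h4* at 0.28 just below it, and *Nr5a2* and *Nr1i2* at -0.23 lie on the lower side.

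Genes that the receptors are known to regulate, and the proteins they work with, were compared on the same ratio. Counts stand beside the 8.29% of all genes past the fold, 4.41% toward shRNA 1 and 3.88% toward shRNA 2. The lists were chosen with earlier results of these data known, so the counts are description and no independent evidence. Of 13 glucocorticoid receptor targets, 11 have a row and 10 had a sufficient mean. Of these 10, 9 were higher in the table of shRNA 1, 4 of them past the fold, and 0 were past it toward shRNA 2, with a median log2 ratio of 0.29. The metallothionein genes *Mt1* and *Mt2*, which bind metals and respond to glucocorticoids and to metals, had mean normalized counts of 886 and 1213 in the shRNA 1 table and of 631 and 886 in the shRNA 2 table. Their ratios were 1.48 and 1.44. *Sgk1*, a kinase induced by steroids, had a ratio of 1.33, with means of 3246 and 2572, and *Zbtb16*, a transcription factor gene induced by glucocorticoids, one of 1.29, with means of 388 and 316. *Fkbp5*, which encodes a cochaperone that lowers the affinity of the receptor for its ligand, had a ratio of 1.22, and *Tsc22d3*, which encodes the glucocorticoid-induced leucine zipper, one of 1.16. *Per1*, a clock gene, was the exception, at 0.95. Without centring, 9 of the 10 were still above 0 and 3 past the fold, *Zbtb16* no longer. *Pck1* and *Cebpd* have no row, and *Tat*, a classical liver target, had means of 4.37 and 2.94. Of the 8 hepatocyte markers 4 were above 0 on the same ratio, with a median log2 ratio of 0.04, and *Alb*, at 0.32, was the highest and just inside the fold. The part of hepatocyte genes in these ratios was not tested.

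Chaperones and cochaperones of the glucocorticoid receptor were abundant, and 0 of 7 were past the fold. *Fkbp5* is among these 7 and is also counted with the targets above. *Hsp90ab1*, the constitutive HSP90, had length-scaled levels of 1906 and 1996, *Hspa8* of 1392 and 1386, and *Hsp90aa1* of 746 and 636. Of 15 coregulators 14 have a row, and their ratios lay between -0.19 and 0.11 in log2, with 0 past the fold and a median of -0.02. Among the most abundant by length-scaled level were *Tbl1x* (147 and 148) and *Ncor1* (112 and 105), subunits of the corepressor complexes that bind receptors without ligand. *Ppargc1a*, the coactivator induced by fasting in liver, was at 5.03 and 5.80.

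Of 13 target genes of FXR and SHP and other bile acid genes, 9 have no row. Of all 22380 annotated protein-coding genes, 55.9% have a row in both tables. Among the 9 are *Cyp7a1* and *Cyp8b1*, which encode enzymes of bile acid synthesis. The exporter gene *Abcb11*, the uptake carrier gene *Slc10a1* and *Fgf15*, the gene of an intestinal hormone, are also among them. *Fgfr4* and *Klb*, which form the hepatic receptor for the intestinal hormone FGF15, had length-scaled levels of 61.2 and 69.1 and of 36.0 and 36.1. *Cyp27a1*, of the alternative pathway of bile acid synthesis, was at 55.8 and 52.2. Of the 3 genes with a sufficient mean 0 were past the fold.

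Of 9 LXR targets 6 have a row in both tables and 4 could be compared. *Lpcat3*, which remodels phospholipids, and *Srebf1*, the regulator of lipogenesis, had length-scaled levels of 159 and 166 and of 59.3 and 63.3. *Scd1*, a desaturase also under the control of *Srebf1*, was the only one past the fold, with mean normalized counts of 347 and 594 and a log2 ratio of -0.70, higher in the table of shRNA 2. The ratio of *Nr1h3* itself was 1.04. *Abca1*, the cholesterol exporter, had a ratio of 1.08.

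For PXR and CAR, 8 of 11 targets could be compared, and 1 was past the fold in each direction. *Cyp3a13* had means of 664 and 558, with a log2 ratio of 0.32 that lies at the threshold and was not past it under any of the other 3 centrings. *Abcc2*, which exports conjugates into bile, had means of 780 and 1058 and a log2 ratio of -0.37. *Abcc3* and *Por* had the highest length-scaled levels of the list, 185 and 168 for the former and 141 and 136 for the latter. The classical PXR target *Cyp3a11* had means of 3.32 and 3.01, and the CAR target *Cyp2b10* has no row. *Cyp3a11* and *Cyp3a13* belong to a family of similar genes, and unique mapping can lose reads of such genes.

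Of 10 PPARG targets 7 have a row, and all 6 with a sufficient mean were higher in the table of shRNA 1, with a median log2 ratio of 0.18, although without centring 5 of them were. *Plin4*, which coats lipid droplets, was past the fold with means of 87.8 and 55.3 and a log2 ratio of 0.74, and *Cd36*, a fatty acid carrier, with means of 39.5 and 30.5 and a log2 ratio of 0.45. Both have low counts, where wide ratios were more frequent. Past the fold were 20.2% of genes with means between 10 and 50, as for *Cd36*, and 9.04% between 50 and 200, as for *Plin4*. Toward shRNA 1 these shares were 8.81% and 5.19%. The most abundant were *Plin2* (length-scaled levels of 442 and 403), *Angptl4* (53.6 and 50.2) and *Lpl* (26.9 and 23.3), which also respond to other PPARs. *Pparg* itself had a ratio of 1.03, and the adipocyte genes *Fabp4* and *Adipoq* have no row.

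**Figure D3:**
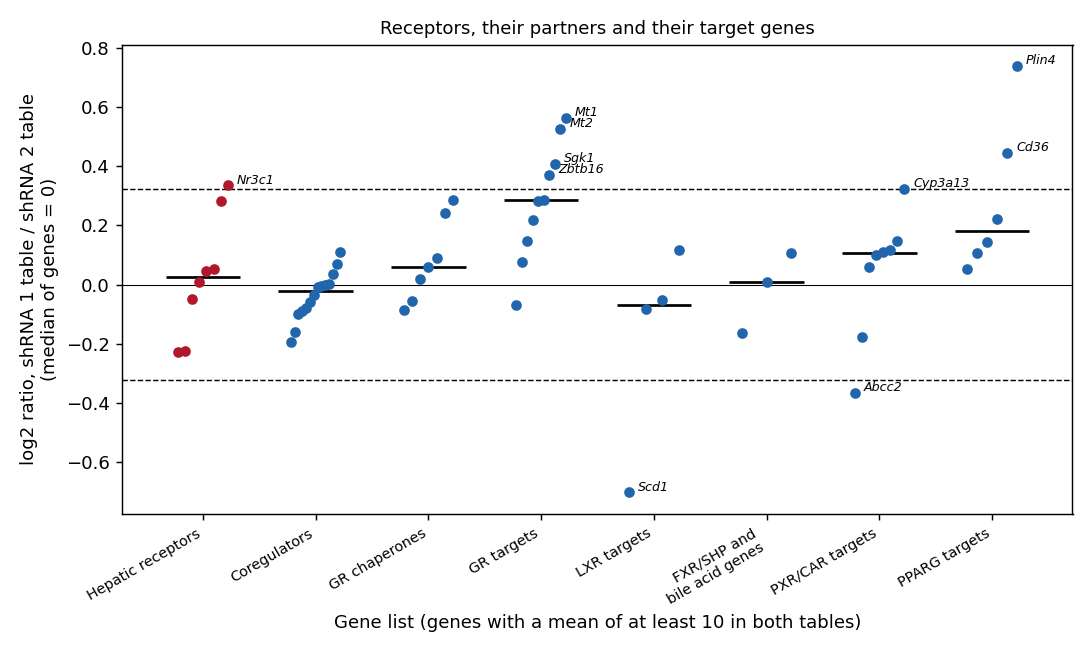
Centred log2 ratio of the shRNA 1 table's mean over the shRNA 2 table's mean for each receptor, chaperone, coregulator and target gene whose mean reached 10 in each table, with black bars for list medians and dashed lines at 0.32 on either side of 0. The glucocorticoid receptor (GR) targets have a median of 0.29, the coregulators one of -0.02, and *Scd1* at -0.70 and *Plin4* at 0.74 lie farthest from 0.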

How the data were processed

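RNA-seq was done on 9 AML12 libraries, 3 in each of 3 groups. Groups were taken from the sample titles. The libraries were strand-specific and enriched for polyA RNA. Reads were mapped by the authors with TopHat2 (mm9), those with a unique position were kept and assigned by HTSeq to genes of GENCODE M1, and DESeq2 1.8.2 scaled the counts. The authors deposited a table for each hairpin, and the column used is the mean normalized count over control and hairpin libraries (a signal of counts divided by size factors). The fold changes, standard errors, statistics and p-values of the authors' comparisons are in the same tables and were not used here.

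The table of shRNA 1 lists 13424 genes with means summing to 6144608, and that of shRNA 2 lists 13478 genes summing to 6393456. All identifiers matched GENCODE M1 on NCBIM37, which is mm9. Exon lengths are the union of annotated exons. Ratios were centred and filtered as stated with the results, after the calculation had been tested on simulated data. The simulation had no noise, large changes and the same controls in both means. It therefore checked the calculation and not how sure a call near the fold is. Alternatives covered length, scaling, centring, minimum mean and fold. Members and lists were chosen with earlier results of these data known. The genes named are all members, *Srrm2*, the superfamily genes next to a member in level, and from each list the 3 with the highest length-scaled level and those past the fold (a ratio of over 0.32 in log2). Some items under this rule are not reported here. Genes named beyond this rule, such as *Rxrg*, *Per1* or *Fabp4*, were chosen after their values were seen. Python 3.11.15, numpy 2.4.6, pandas 2.3.3 and matplotlib 3.10.9 were used.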

Additional observations from a re-analysis of the deposited data

How the results depend on the processing

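The level of each receptor moved by less than 1.5 times with the length of the longest transcript or with scaling over protein-coding genes. The latter multiplies all levels of a table by the same factor, so it could not change their order within a table. Of the receptors, 1 was past the fold. This number was 4 at a fold of 1.1 (*Nr1h4*, *Nr1i2*, *Nr3c1* and *Nr5a2*), 0 at a fold of 1.5, 0 without centring and 0 when centred on the summed means. *Nr3c1* then had log2 ratios of 0.26 and 0.32, and for the other 7 receptors the side of the fold was the same under every centring run. Over all genes, 949 were past the fold. There were 1759 without a minimum mean, 324 with a minimum mean of 100, 4120 at a fold of 1.1 and 178 at a fold of 1.5. No paired analysis was possible because the tables hold pooled means with no replicate numbers, and for the same reason no replicate was left out. The unknown depth of the libraries limits the low genes most, such as *Nr0b2* and *Nr1i2*.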

Other observations

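Of the 49 genes of the superfamily, 14 including *Nr1i3* have no row in either table, and *Hnf4g*, *Pgr*, *Esr2* and *Nr2f1* are among them. *Esr1* and *Esrrb* had the lowest length-scaled levels of those listed, 0.41 and 0.26 for *Esr1* in the tables of shRNA 1 and shRNA 2 and 0.26 and 0.40 for *Esrrb*. *Esrra*, a regulator of mitochondrial genes, came next after *Nr1h4* and *Hnf4a* in the superfamily, at 149 and 164. *Rarb*, a retinoic acid receptor gene that retinoic acid itself induces, had means of 7.34 and 12.4 and was below the minimum mean in the table of shRNA 1.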
